A study of Mus musculus with 9 samples.

Results

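For each gene, the ratio of its RNA level in the oocyte nucleus to that in the cytoplasm was compared between wild-type (WT) and MTR4-null mouse oocytes. Of 23235 named genes in the deposited table, 8986 reached an FPKM (fragments scaled to the length of the transcript and to the total mapped) of at least 5 in at least 2 of its 4 columns, and all of these were described. They comprised 8049 genes with ordinary symbols, 821 predicted gene models, 63 small nuclear and nucleolar RNA genes and 53 microRNA genes, as told by symbol. The change of ratio is log2((nucleus + 1)/(cytoplasm + 1)) in MTR4-null minus the same value in WT, so a positive change means a relatively more nuclear RNA without MTR4. At the edge of the filter, Podxl2 and Slc26a5, with a second-highest column of 5.00 FPKM each, were just inside, and Yars2 and Adarb1, at 4.997 and 4.998 FPKM, were just outside.

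Oocytes of day 21 were taken apart by micromanipulation, and 10 nuclei or 10 cytoplasms were pooled for each sample. The labels give 3 libraries for the WT nucleus and 2 for each of the WT cytoplasm, the MTR4-null nucleus and the MTR4-null cytoplasm, all total RNA after depletion of ribosomal RNA. The allele that makes the oocytes MTR4-null and the Cre or promoter behind it do not appear in the sources used here. The authors deposited 1 column per group, and how many libraries stand behind each column is uncertain, so every value below is a pooled value whose spread between libraries is unknown, and no difference could be tested.

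MTR4 is an RNA helicase that unwinds nuclear transcripts and feeds them into the RNA exosome, the main 3′ to 5′ RNA degradation machine of the cell. Its nuclear substrates are known to include precursors of small nucleolar RNAs and of ribosomal RNA, promoter upstream transcripts and other RNAs that are normally short-lived. A growing oocyte stores maternal mRNA in its cytoplasm for use after fertilization, while small nuclear RNAs and certain long noncoding RNAs stay in the nucleus.

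The gene class farthest from the rest by its median change was that of small nuclear and nucleolar RNAs. Small nucleolar RNAs guide chemical modification of ribosomal RNA. They come in a C/D box class, which directs methylation, and an H/ACA box class, which directs pseudouridylation. A few members illustrate both patterns described below: Snord104, Snora26, Snora31 and Snora78 were nuclear in WT and present in both compartments of MTR4-null oocytes, and Snord33 and Snord85 were listed at 0 in both WT columns. Capitals mark the box C core TGATG where it lies within the first 25 bases, the box D motif CTGA within the last 25 bases, or the ACA motif within the last 8 bases.
Snord104: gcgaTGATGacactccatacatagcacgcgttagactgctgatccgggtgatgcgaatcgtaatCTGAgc
Snora26: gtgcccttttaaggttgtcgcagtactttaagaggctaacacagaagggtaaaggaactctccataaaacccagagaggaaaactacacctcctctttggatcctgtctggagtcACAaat
Snora31: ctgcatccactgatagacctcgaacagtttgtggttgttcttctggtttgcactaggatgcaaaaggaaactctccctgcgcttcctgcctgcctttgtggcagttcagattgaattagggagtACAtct
Snora78: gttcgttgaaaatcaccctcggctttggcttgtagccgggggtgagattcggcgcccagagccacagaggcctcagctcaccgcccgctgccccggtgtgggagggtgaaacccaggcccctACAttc
Snord33: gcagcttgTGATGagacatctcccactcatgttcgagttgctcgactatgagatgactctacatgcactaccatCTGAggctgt
Snord85: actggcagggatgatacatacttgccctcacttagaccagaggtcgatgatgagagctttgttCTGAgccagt

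These sequences are those of the genes in GENCODE M21 on GRCm38, given 5′ to 3′ on the gene's strand. Snord104 lies at chr11:106500993-106501062 (+), Snora26 at chr5:74093530-74093650 (+), Snora31 at chr14:75847905-75848034 (+), Snora78 at chr17:24719676-24719803 (-), Snord33 at chr7:45126864-45126947 (-) and Snord85 at chr4:130749634-130749706 (+). With these windows, both box motifs were found in 14 of the 17 Snord genes kept, against 85 of 98 (86.7%) of all Snord genes in that annotation, and the ACA motif in 30 of the 31 Snora genes kept, against 38 of 40 (95%). Snord85 lacks TGATG in its first 25 bases. The 63 small RNA genes kept measure 70 to 423 nt, with a median of 133 nt, and 59 are under 300 nt, the lower limit of the cDNA fragments selected for sequencing. Their FPKM are therefore reads assigned to short loci, and their levels cannot be set beside those of mRNAs. Whether these reads come from the mature RNAs or from longer transcripts over the same loci was not tested. The values below are of loci in this sense.

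The labels were checked with the deleted gene and with cell type markers. Mtr4, listed under its older symbol Skiv2l2, was at 16.2 FPKM in the WT nucleus, 21.6 in the WT cytoplasm, 2.91 in the MTR4-null nucleus and 2.51 in the MTR4-null cytoplasm, or 17.97% and 11.6% of the WT level. All 16 oocyte markers were kept, with a summed FPKM of 7886 to 12824 across the columns. Of 23 granulosa cell markers 5 were kept, with sums of 68.3 to 133 FPKM, of 12 theca and stromal markers 0, with sums of 3.11 to 18.4, and of 16 immune, endothelial and red cell markers 2, with sums of 21.2 to 33.5. The part of these cells in the results was not tested.

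The centre of the ratio differed between the genotypes. In WT the median log2 ratio was -0.14, with 37.3% of genes above 0, and in MTR4-null it was 0.58, with 89.9% above 0. The median change was 0.72, or 1.64-fold, and 83.2% of genes had a change above 0. As deposited, the ratio was at least 2-fold higher for 2684 genes (29.9%) and at least 2-fold lower for 402 (4.47%). The median genotype difference behind it was 0.23 for nuclei and -0.54 for cytoplasms. These values depend on the scaling: they were 0.055 and 0.019 with equal sums without small RNA genes, and -0.056 and -0.16 after quantile normalization.

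FPKM is scaled to each column's mapped total and to transcript length, so a share of summed FPKM is not a share of reads. Small nuclear and nucleolar RNA genes held 53.5% of the summed FPKM in the WT nucleus, 0.977% in the WT cytoplasm, 49.7% in the MTR4-null nucleus and 32.3% in the MTR4-null cytoplasm. With the columns rescaled to equal sums without small RNA genes, the median change was -0.011, with 533 genes at least 2-fold higher and 964 lower. Changes are therefore given relative to the median from here on, and called centred. On that scale the ratio was at least 2-fold higher for 525 genes (5.84%) and at least 2-fold lower for 1015 (11.3%). The centred counts of each list below are to be read beside these shares.

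**Figure D1:**
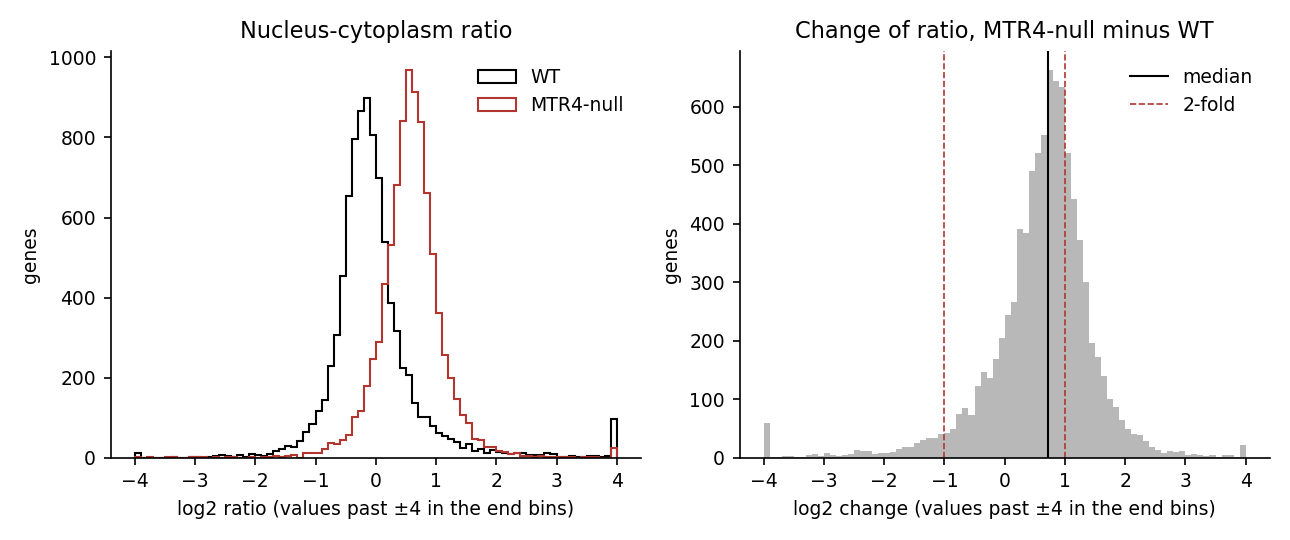
Left, number of genes (vertical axis) by log2 nucleus-cytoplasm ratio of FPKM + 1 for WT (black) and MTR4-null (red); right, number of genes by change of ratio as deposited, with the median (solid line, 0.72) and the 2-fold limits (dashed). The MTR4-null ratios sit to the right of the WT ratios and are less spread, and the change has a longer tail to the left.

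Ratios were also more alike from gene to gene in MTR4-null oocytes. The interquartile range of the log2 ratio was 0.58 in WT and 0.53 in MTR4-null, and the SD over genes was 0.995 and 0.601. The tails accounted for most of this contrast. After each genotype's ratios were centred on their own median, 679 genes (7.56%) were at least 2-fold nuclear and 250 (2.78%) at least 2-fold cytoplasmic in WT, against 260 (2.89%) and 263 (2.93%) in MTR4-null. Only 93 genes were nuclear in both, which is 13.7% of the WT class and 35.8% of the MTR4-null class. Of the other WT nuclear genes, 537 lay between the limits in MTR4-null and 49 were cytoplasmic. Of the 250 WT cytoplasmic genes, 23 were also cytoplasmic in MTR4-null, 202 lay between and 25 were nuclear. The change contains the WT ratio with a minus sign, so genes picked for an extreme WT ratio tend to have a change of the opposite sign, and how much of these counts comes from that choice cannot be told apart here.

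Across genes, the ratio in WT said little about the ratio in MTR4-null. Pearson's r between the genotypes' ratios, which share no column, was 0.19 and Spearman's rho 0.01 over 8986 genes, and 0.04 and -0.00 over the 8049 genes with ordinary symbols. In the most abundant quintile of the latter r was 0.18. Genotype differences, by contrast, ran together: the difference in the nucleus and that in the cytoplasm had an r of 0.66 and a rho of 0.72 over 8986 genes. Genes are not independent replicates, and these values describe 4 columns whose genes share libraries and depth.

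**Figure D2:**
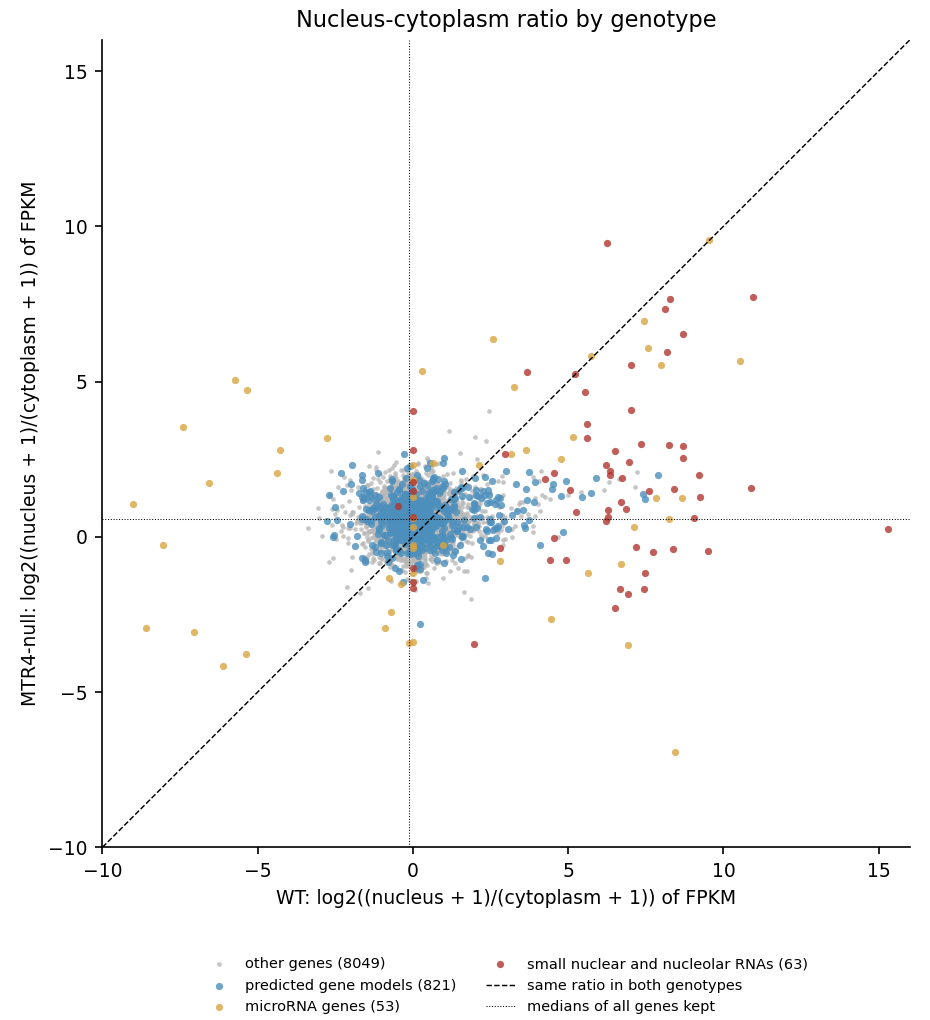
Log2 nucleus-cytoplasm ratio of FPKM + 1 in WT (horizontal axis) and MTR4-null (vertical axis), 1 point per gene, coloured by gene class. Most genes form a cloud above the dashed line of equal ratios, and the small nuclear and nucleolar RNA genes (red) lie far to the right and mostly below that line.

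The genes with the highest ratios in WT differed in both compartments. The 101 genes at least 16-fold nuclear in WT had a median centred log2 ratio of 6.50 in WT and 0.89 in MTR4-null. Their median genotype difference was -1.31 for the nucleus and 3.62 for the cytoplasm: nuclear levels were 2-fold lower or more in 60 of them, and cytoplasmic levels 2-fold higher or more in 83, against 8.06% and 14% of all genes kept. The genes were picked on WT values that enter both differences, so these counts are a description. Of these 101 genes 20 had ordinary symbols, with 14 lower in the nucleus and 19 higher in the cytoplasm. At the other end, the 250 cytoplasmic genes of WT had a median nuclear difference of 2.097 and a median cytoplasmic one of -0.18, and 207 of them had nuclear levels 2-fold higher or more, against 22.3% of all genes kept. The low WT nuclear level for which they were picked is part of that difference.

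Each change of ratio was next split into its nuclear and its cytoplasmic side, with the genotype difference of each compartment centred on its own median. Among the 525 genes with a higher ratio, 296 had nuclear levels 2-fold or more above WT without cytoplasmic levels 2-fold below it, 58 met only the cytoplasmic condition, 13 met both and 158 neither. The 296 include 95 genes with cytoplasmic levels at least 2-fold higher as well. Among the 1015 with a lower ratio, 610 had cytoplasmic levels 2-fold or more above WT without nuclear levels 2-fold below it, 222 met only the nuclear condition, 78 met both and 105 neither. The 610 include 264 genes with nuclear levels at least 2-fold higher as well, and the 222 include 42 with cytoplasmic levels at least 2-fold lower.

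**Figure D3:**
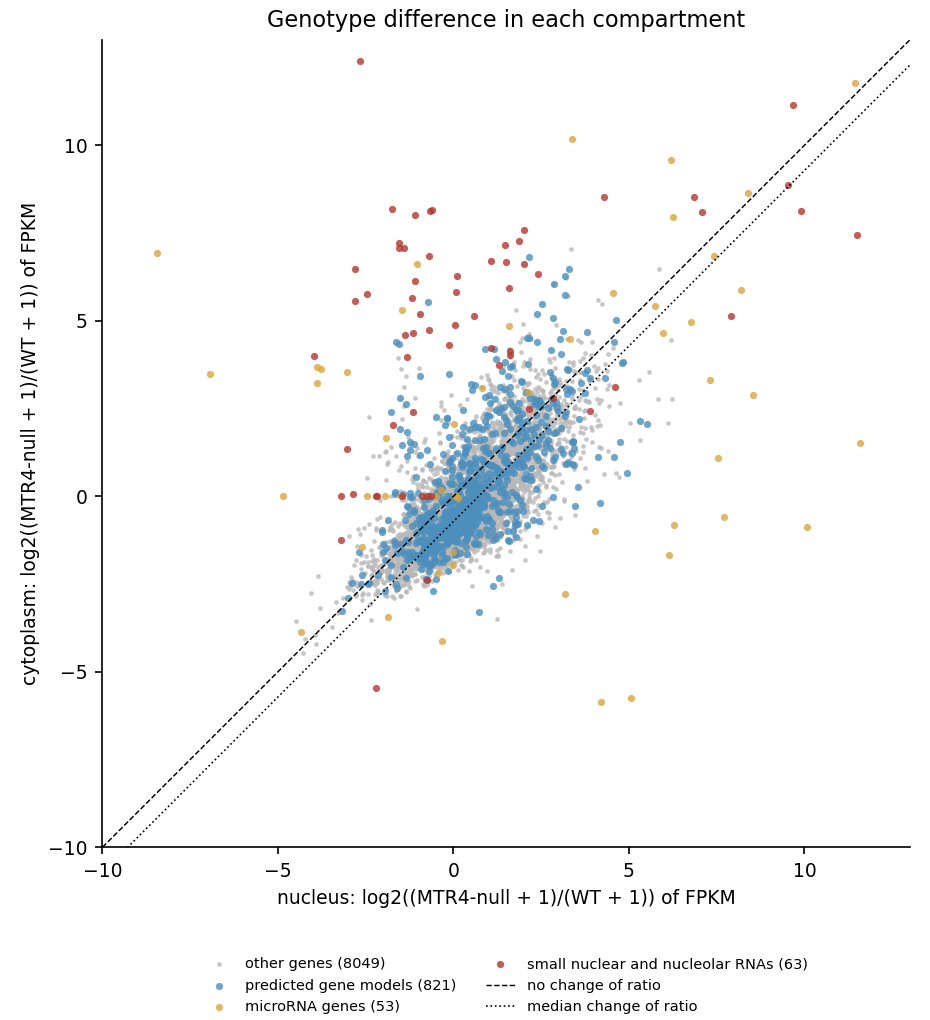
Log2 genotype difference of FPKM + 1 in the nucleus (horizontal axis) and in the cytoplasm (vertical axis), 1 point per gene, coloured by gene class. Genes above the dotted line had a centred change below 0; the small nuclear and nucleolar RNA genes (red) lie mostly high above it, near 0 on the nuclear axis and well above 0 on the cytoplasmic axis.

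Small nuclear and nucleolar RNA genes had the lowest median of all gene lists. Of the 63 kept, 54 were at least 2-fold lower in centred ratio and 4 higher, against 11.3% and 5.84% of all genes kept, with a median of -5.08. The WT cytoplasm column lists 40 of them at 0 and the WT nucleus column 8, where no fold can be given. The counts and the median of the 63 include these genes. The 20 that stood above 0 in every column had a median centred change of -6.02, with 19 lower and 0 higher, and their median log2 ratio was 6.46 in WT and 0.71 in MTR4-null. Summed over all 124 such genes in the table, FPKM was 456972 in the WT nucleus, 4073 in the WT cytoplasm, 437411 in the MTR4-null nucleus and 139891 in the MTR4-null cytoplasm. The nuclear sum was therefore 112-fold the cytoplasmic one in WT and 3.13-fold in MTR4-null. Scarna2 made up most of these sums. Without it the other 123 genes summed to 95247, 645, 66945 and 39656 FPKM in the same order, so that the nuclear sum was 148-fold the cytoplasmic one in WT and 1.69-fold in MTR4-null. The median genotype difference of the 63 genes was -0.68 in nuclei.

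The same contrast of summed FPKM appeared in each class of these RNAs, but some WT cytoplasm sums were small. That sum was 7.34 FPKM for Snord genes, where 14 of the 17 kept were at 0, and 49.4 for Scarna genes without Scarna2. Ratios over these sums rest on values near 0. By single genes, the 17 Snord genes kept had a median centred change of -2.38, with 3 higher and 14 lower. As deposited, 3 were higher and 11 lower. The WT nucleus column lists 6 of the 17 at 0 as well. For those 6 no WT ratio exists, yet the median and the counts include them. The summed nucleus-cytoplasm ratio was 1644 in WT and 2.99 in MTR4-null for C/D box Snord genes, 55.6 and 2.50 for H/ACA box Snora genes, 117 and 3.55 for Scarna genes, whose RNAs guide modification of spliceosomal RNAs in Cajal bodies (949 and 1.33 without Scarna2), and 65.8 and 1.26 for the remaining genes. Scarna2, the most abundant of them, was at 361725 FPKM in the WT nucleus, 3428 in the WT cytoplasm, 370466 in the MTR4-null nucleus and 100235 in the MTR4-null cytoplasm. Its nuclear levels differed little, and its cytoplasmic level was far higher without MTR4.

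Of the nucleolar RNAs whose sequences stand above, Snord104 was at 1876 FPKM in the WT nucleus, listed at 0 in the WT cytoplasm, and at 266 and 88.0 in the MTR4-null nucleus and cytoplasm. Snora26 was at 172 FPKM in the WT nucleus, 0 in the WT cytoplasm, 79.9 in the MTR4-null nucleus and 256 in the MTR4-null cytoplasm. Snora31 was at 90.9, 0, 56.3 and 281 FPKM in the same order, and Snora78 at 701, 1.13, 241 and 317. All 4 were lower in the MTR4-null nucleus than in the WT nucleus. The 3 H/ACA members were higher in the MTR4-null cytoplasm than in the MTR4-null nucleus. These 4 were picked from the smallest changes of ratio, a choice that favours low MTR4-null ratios. Over the 31 Snora genes kept, the median log2 ratio in MTR4-null was 1.49, still on the nuclear side. Snora74a, at 729, 0, 215 and 293 FPKM, showed the same order of columns as Snora78. Scarna17, at 40468, 0, 6443 and 5452 FPKM, was slightly higher in the MTR4-null nucleus than in its cytoplasm.

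RNAs of ribonucleoprotein enzymes followed. Rpph1, the RNA of RNase P, which trims tRNA precursors, was at 11847 FPKM in the WT nucleus, 156 in the WT cytoplasm, 12556 in the MTR4-null nucleus and 8822 in the MTR4-null cytoplasm. Rmrp, the RNA of the related RNase MRP, was at 2733, 115, 11013 and 11312 FPKM in the same order. Terc, the template RNA of telomerase, was at 455, 1.32, 234 and 83.5 FPKM. These 3 were named after their values were seen, and their centred changes were -6.44, -5.31 and -6.86. Rmrp was higher in both MTR4-null columns, whereas Terc was lower in the MTR4-null nucleus. Rnu12, the U12 RNA of the minor spliceosome, was at 232, 9.87, 654 and 1100 FPKM, with a centred change of -5.89.

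A few small RNA genes went the other way. Snord85 was listed at 0 in both WT columns and stood at 2908 FPKM in the MTR4-null nucleus and 173 in the MTR4-null cytoplasm, and Snord33 at 0, 0, 241 and 34.1. For these genes no WT ratio exists, and their rank reflects the MTR4-null columns alone. Scarna10 was at 3303 FPKM in the WT nucleus, 42.7 in the WT cytoplasm, 711 in the MTR4-null nucleus and listed at 0 in the MTR4-null cytoplasm.

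Long noncoding RNAs known to reside in the nucleus were few and varied. Of 14 listed in the deposited data, 5 were kept, with a median centred change of -0.78, and 2 were at least 2-fold lower. That median ranged from -2.11 to -0.29 over the alternative settings. Malat1, a nuclear speckle RNA, was at 181 FPKM in the WT nucleus, 8.63 in the WT cytoplasm, 173 in the MTR4-null nucleus and 69.6 in the MTR4-null cytoplasm, a centred change of -3.66. Kcnq1ot1, the antisense RNA that silences an imprinted gene cluster, was at 16.05, 0.11, 6.27 and 2.04 FPKM, a centred change of -3.40. Both were less confined to the nuclear column in MTR4-null, Malat1 with almost the same nuclear level. Airn, the antisense RNA of the imprinted Igf2r cluster, was at 6.31, 1.20, 6.199 and 1.26 FPKM and Rian, of the imprinted Dlk1-Dio3 region, at 5.76, 1.30, 5.50 and 0.83. Each of the last pair kept a nuclear level more than 4 times the cytoplasmic one in both genotypes, with centred changes of -0.78 and -0.45. The remaining member, 2900097C17Rik, was at 4.90, 4.67, 26.3 and 16.1 FPKM, a centred change of -0.10, and was not nuclear in WT. Over the 225 kept genes annotated as long noncoding or antisense RNA, which include many gene models, the median centred change was -0.54. Of them 21 were at least 2-fold higher and 87 lower, against 5.84% and 11.3% of all genes kept.

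The list of host genes, which carry snoRNA sequences within introns, had a median centred change of -0.22 over the 17 kept. Of these 1 was at least 2-fold higher and 6 lower (5.88% and 35.3%, against 5.84% and 11.3% of all genes kept). The lower ones include Rnu12, the U12 RNA itself, which is also counted among the small nuclear and nucleolar RNA genes. Snhg5 was at 21.03 FPKM in the WT nucleus, 1.98 in the WT cytoplasm, 5.47 in the MTR4-null nucleus and 6.84 in the MTR4-null cytoplasm, a centred change of -3.88. Snhg6 was at 6.86, 8.77, 39.4 and 10.7 FPKM, a centred change of 1.39. Both are noncoding hosts, and they lay on opposite sides of the median.

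The genes with the smallest changes other than small RNAs and gene models were nearly all nuclear in WT with a cytoplasmic level close to 0. Olfr856-ps1, an odorant receptor pseudogene, was at 179 FPKM in the WT nucleus, 0.277 in the WT cytoplasm, 59.5 in the MTR4-null nucleus and 18.7 in the MTR4-null cytoplasm, a centred change of -6.24. Zfp488, a zinc finger repressor gene, was at 200.3, 0.356, 70.7 and 15.7 FPKM, a centred change of -5.83. The vomeronasal receptor gene Vmn1r58 was at 112, 0.134, 43.5 and 11.1 FPKM (-5.48) and the odorant receptor gene Olfr613 at 89.5, 0.149, 32.9 and 9.04 (-5.26). These 4 genes shared a pattern: the MTR4-null nucleus held 0.332 to 0.389 of the WT level, and the MTR4-null nucleus stood 3.18 to 4.50 times above its cytoplasm. Receptor genes of these families belong to large families of close copies, and the sources used here do not say whether the deposited values rest on reads with a unique position.

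Others of this group differed in how they came by a low ratio. Cpne8, a copine that binds membranes, was at 65.5 FPKM in the WT nucleus, 1.63 in the WT cytoplasm, and 11.5 in both MTR4-null columns. Churc1, which encodes a zinc-binding protein, was at 16.7, 0.22, 179.6 and 160.2 FPKM, and the chemokine receptor gene Cxcr2 at 15.3, 0.111, 55.2 and 43.2. Churc1 and Cxcr2 were thus higher in both MTR4-null compartments, and Cpne8 was lower in the nucleus. Lars2, the mitochondrial leucyl-tRNA synthetase, was the most abundant gene of the group at 1598 FPKM in the WT nucleus, 436 in the WT cytoplasm, 755 in the MTR4-null nucleus and 3039 in the MTR4-null cytoplasm. It was nuclear in WT and cytoplasmic in MTR4-null, with log2 ratios of 1.87 and -2.01, as was Nmb, with 1.66 and -1.78. Further members were Grk4 (-4.69), 4932411L15 (-5.37) and Nmb (-4.16), given with their centred changes.

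At the other end stood genes that, as deposited, were higher in the cytoplasm in WT and higher in the nucleus without MTR4. Relative to the MTR4-null median some were not 2-fold nuclear, such as Arl8a (log2 ratio 0.34) and Rnaset2a (-0.31). Bcat2, the mitochondrial branched-chain aminotransferase, was at 3.23 FPKM in the WT nucleus, 25.3 in the WT cytoplasm, 8.999 in the MTR4-null nucleus and 1.32 in the MTR4-null cytoplasm, a centred change of 4.03. Hint2, a mitochondrial nucleotide hydrolase, was at 0.824, 7.54, 46.5 and 11.4 FPKM (3.45), and Fis1, a mitochondrial fission factor, at 9.07, 21.1, 40.5 and 5.28 (3.14). In each of these the order of the compartments was the opposite in the genotypes. Hint2 was higher in both MTR4-null columns, while Bcat2 and Fis1 were higher in the nucleus and lower in the cytoplasm.

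The purine enzyme gene Ada was at 0.424 FPKM in the WT nucleus, 8.09 in the WT cytoplasm, 14.6 in the MTR4-null nucleus and 5.30 in the MTR4-null cytoplasm (3.27). Arl8a, a lysosomal GTPase, was at 0.835, 14.2, 44.6 and 23.04 FPKM (3.25) and Pigx, of the glycolipid anchor pathway, at 3.13, 23.7, 12.2 and 4.72 (3.07). These too had opposite orders of the compartments. The others were Zfp511 (3.31), Rpl26 (3.30), Slc23a3 (3.15), Bccip (3.05), the linker histone gene Hist1h1b (2.99) and Rnaset2a (2.95). Rpl26 and Rnaset2a were below 0.01 FPKM in the WT nucleus, so that their changes rest on the pseudocount of 1.

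**Figure D4:**
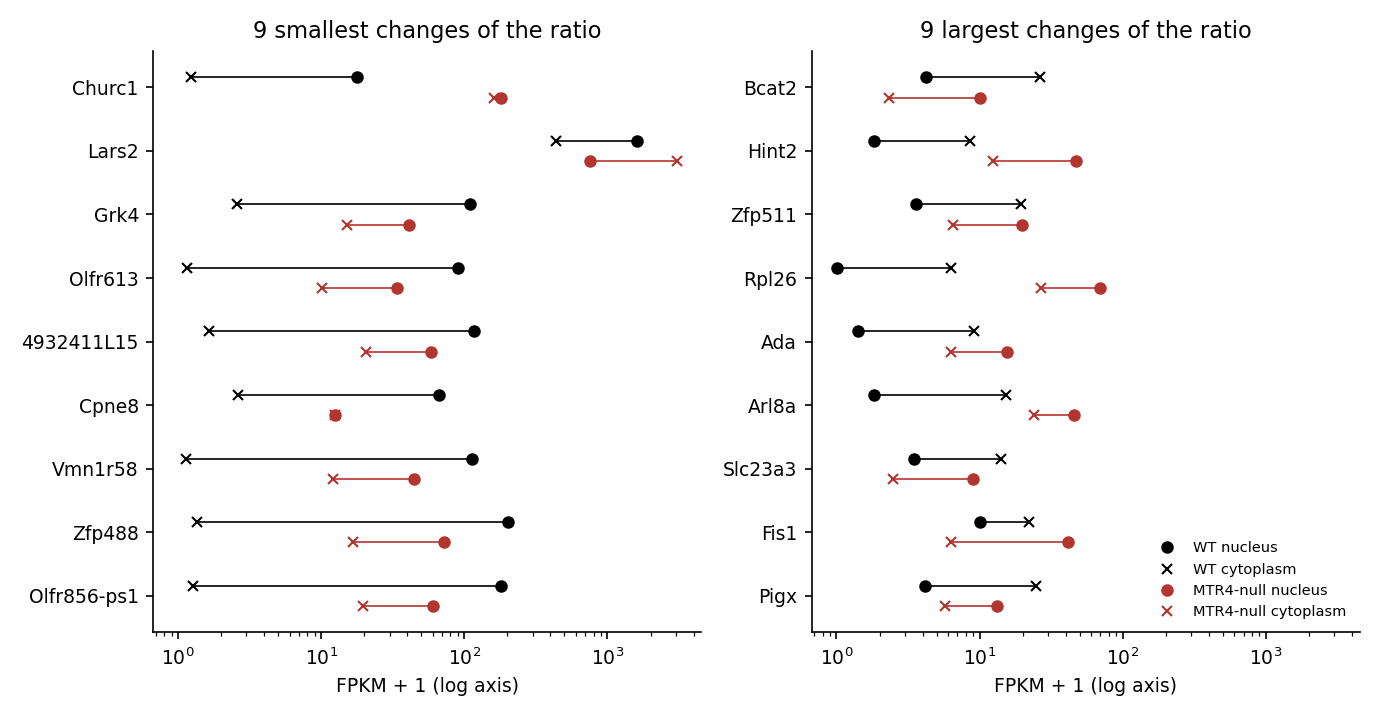
FPKM + 1 on a log axis for the 9 genes with the smallest (left) and the 9 with the largest (right) change of ratio among genes other than small RNAs and gene models, in WT (black) and MTR4-null (red), with circles for the nucleus and crosses for the cytoplasm. On the left the WT circles lie right of the crosses in all 9 genes and the red pairs are mostly closer together; on the right the WT circles lie left of the crosses and the red circles right of them.

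Replication-dependent histone genes, whose mRNAs end in a stem-loop instead of a poly(A) tail, had the highest median of the lists. Of 45 kept, 17 were at least 2-fold higher in centred ratio and 3 lower (37.8% and 6.67%, against 5.84% and 11.3% of all genes kept), with a median of 0.69. Their median genotype difference, not centred, was 2.63 for the nucleus and 1.41 for the cytoplasm, against 0.23 and -0.54 over all genes kept. Both medians were thus above 0, and the nuclear one was the larger, as it was over all genes kept. Members such as Hist1h1b and Hist2h2ab were below 5 FPKM in both WT columns. They passed the filter through the MTR4-null columns, which favours higher levels in MTR4-null. Summed FPKM was 3579 in the WT nucleus, 4808 in the WT cytoplasm, 12824 in the MTR4-null nucleus and 8444 in the MTR4-null cytoplasm, which gives a ratio of 0.744 for WT and 1.52 for MTR4-null. Their sum was thus more cytoplasmic in WT and more nuclear without MTR4, as was that of the oocyte markers, at 0.822 and 1.63.

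Single histone genes varied. Hist1h1a, a linker histone and the most abundant member, was at 437 FPKM in the WT nucleus, 936 in the WT cytoplasm, 1929 in the MTR4-null nucleus and 1234 in the MTR4-null cytoplasm, a centred change of 1.02. Hist1h1b, another linker histone, was at 0.136, 2.06, 44.0 and 8.30 FPKM, and Hist1h2ag, of the H2A family, at 0.948, 10.7, 146 and 78.5 (2.76). As deposited, all 3 were higher in the cytoplasm in WT and higher in the nucleus in MTR4-null. Relative to the MTR4-null median, their log2 ratios in MTR4-null were 0.06, 1.69 and 0.30. Hist2h2ab was the lowest member, at 2.13, 1.38, 15.7 and 25.5 FPKM and a centred change of -1.78. Many core histone genes of the same family are near-identical copies, so the split of reads among such members is uncertain. The 10 replacement histone genes, whose mRNAs are polyadenylated, had a median of 0.01, with 0 higher and 2 lower. The lower pair was H2afy, which encodes macroH2A, at 19.2, 6.89, 31.9 and 19.8 FPKM (-1.42), and H2afz, at 46.6, 28.3, 167 and 145 (-1.21).

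Oocyte genes lay with the bulk of genes. Of 42 maternal effect genes kept, 16 were at least 2-fold higher in ratio as deposited and 1 lower, against 29.9% and 4.47% of all genes kept, and after centring 0 were higher and 2 lower, with a median of 0.23. Gdf9, a growth factor the oocyte secretes, was at 1800 FPKM in the WT nucleus, 2677 in the WT cytoplasm, 2133 in the MTR4-null nucleus and 1304 in the MTR4-null cytoplasm. Padi6, a component of the subcortical maternal complex, was at 1203, 1812, 2517 and 1359 FPKM. Zbed3, of the same complex, was at 3156, 4228, 4109 and 2600. As deposited, all 3 were higher in the cytoplasm in WT and higher in the nucleus in MTR4-null. Their centred changes were 0.56, 0.76 and 0.36. The lower pair was Bcas2, which also codes for a splicing factor, at 19.7, 7.63, 64.4 and 57.2 FPKM (-1.81), and Nlrp4c, at 18.8, 14.0, 18.1 and 19.8 (-1.23).

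The other oocyte lists were similar. The 17 genes of the zona pellucida, egg surface and secreted factors had a median centred change of 0.32, with 0 beyond 2-fold in either direction. The 22 oocyte transcription factors had a median of 0.19, with 1 higher, Taf4b at 5.60, 8.90, 16.4 and 6.76 FPKM (1.04), and 0 lower. The 40 genes of meiotic arrest and maturation had a median of 0.07, with 1 higher and 2 lower. The higher one was Prkaca, the protein kinase A subunit that keeps oocytes arrested, at 9.74 FPKM in the WT nucleus, 22.1 in the WT cytoplasm, 43.9 in the MTR4-null nucleus and 27.5 in the MTR4-null cytoplasm (1.04). The lower ones were Gpr3, a receptor that maintains arrest, at 56.0, 53.7, 19.35 and 24.6 FPKM (-1.11), and Ccnb3, a meiotic cyclin, at 19.4, 12.4, 2.59 and 1.97 (-1.05). Among the 5 kept genes known from the 2-cell embryo, Zscan4d was higher (1.19) and Eif1a lower (-1.77). Both were below 5 FPKM in the 2 WT columns and were kept through the MTR4-null columns.

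**Figure D5:**
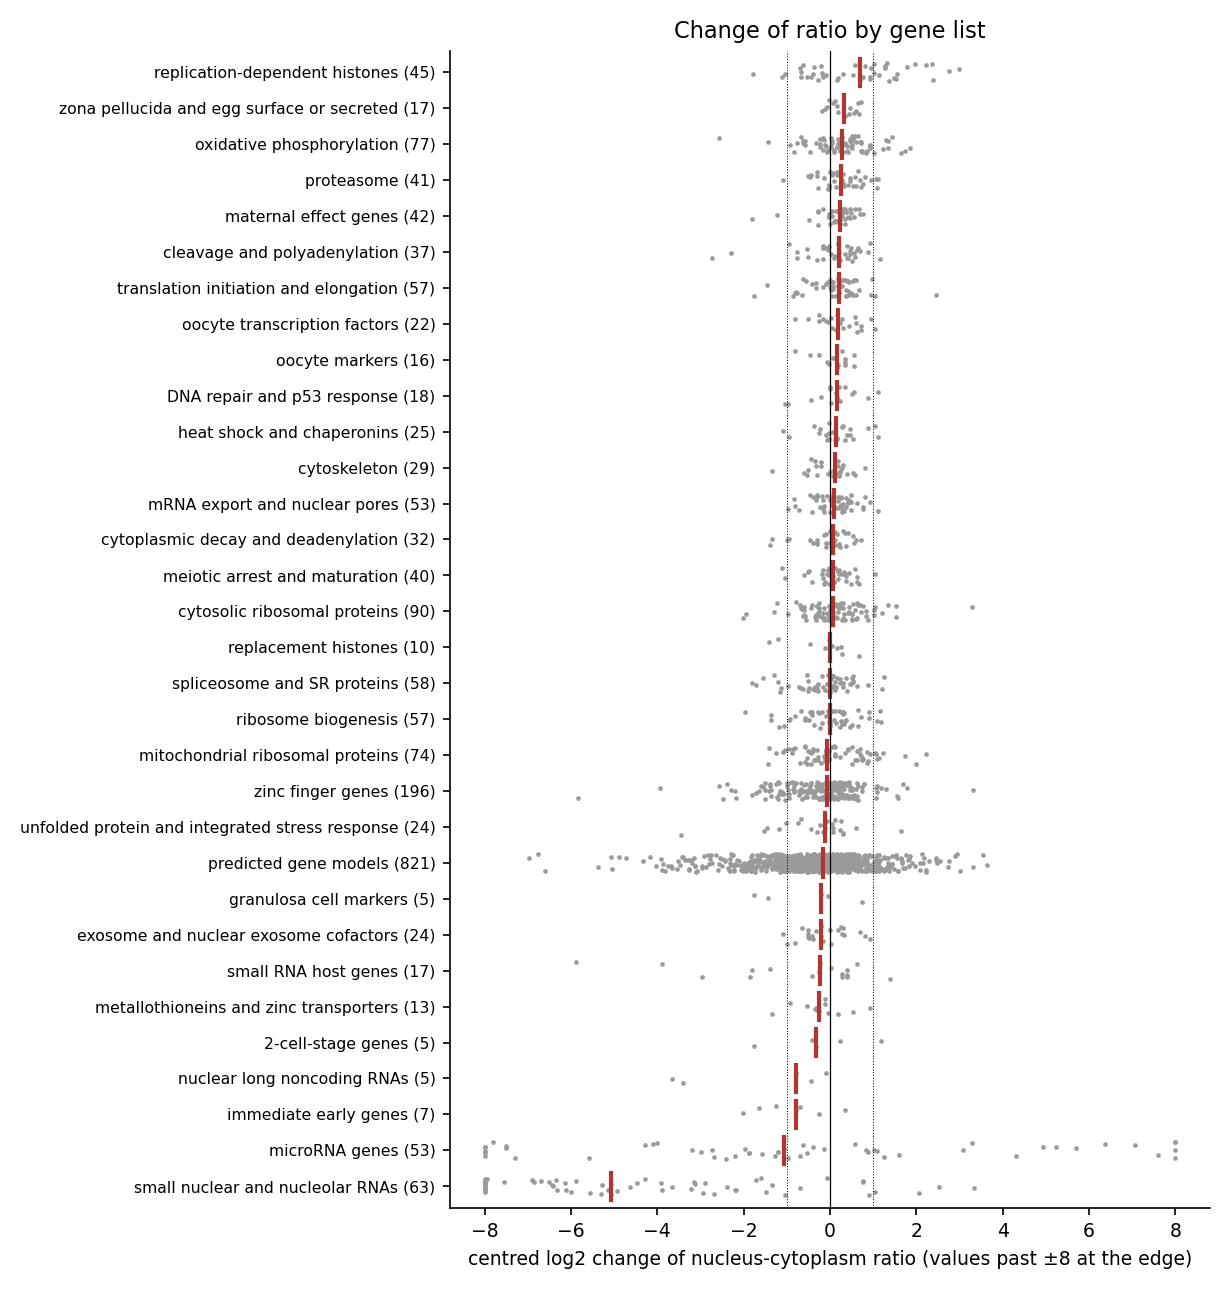
Centred log2 change of nucleus-cytoplasm ratio (horizontal axis) for the kept members of each gene list with at least 5 (numbers in parentheses); grey points are genes, red bars medians, dotted lines the 2-fold limits. List medians run from -5.08 for small nuclear and nucleolar RNAs to 0.69 for replication-dependent histones, and most lists lie within 0.35 of 0.

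Genes of energy metabolism and protein turnover lay slightly above the median. Nuclear-encoded genes of oxidative phosphorylation had a median centred change of 0.27 over 77 kept. Of these 9 were higher and 2 lower (11.7% and 2.60%, against 5.84% and 11.3% of all genes kept). Ndufb7, a complex I subunit, was at 7.31 FPKM in the WT nucleus, 39.0 in the WT cytoplasm, 58.9 in the MTR4-null nucleus and 47.1 in the MTR4-null cytoplasm (1.86). Cox6a2, a cytochrome c oxidase subunit, was at 13.1, 5.70, 0.779 and 2.05 FPKM (-2.57). The first was more nuclear in MTR4-null and higher in both compartments, and the second more cytoplasmic and lower in both. Proteasome genes had a median of 0.26 over 41, with 3 higher and 1 lower (7.32% and 2.44%). Translation factors had 0.20 over 57, with 2 each way (3.51%). Eif2b2, a subunit of the exchange factor for eIF2, was at 11.8, 30.2, 37.8 and 9.54 FPKM (2.45).

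Ribosomal protein genes held to the median but contained outlying members. The 90 cytosolic ones had a median of 0.06, with 8 higher and 4 lower (8.89% and 4.44%). The 74 mitochondrial ones had -0.06, with 8 higher and 5 lower (10.8% and 6.76%). The shares over all genes kept were 5.84% and 11.3%. Rpl30 was at 11.9 FPKM in the WT nucleus, 39.4 in the WT cytoplasm, 17.3 in the MTR4-null nucleus and 11.03 in the MTR4-null cytoplasm (1.54), while Rps21 was at 116, 55.2, 151 and 170 (-1.94). Mrps15, of the mitochondrial small subunit, was at 6.52, 11.9, 17.1 and 3.03 FPKM (2.22). Relative to the median of each genotype, the log2 ratio of Rpl30 was -1.51 in WT and 0.02 in MTR4-null. That of Mrps15 was -0.63 and 1.58, and that of Rps21 was 1.19 and -0.75. Rpl30 was thus relatively cytoplasmic in WT and near the median in MTR4-null. Ribosomal protein genes have many processed pseudogenes, which could take part of their reads.

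The machinery of RNA decay and processing did not stand far from the median either. Of 24 exosome subunit and nuclear cofactor genes 0 were 2-fold or more higher and 1 lower, with a median of -0.21. Exosc2, an RNA-binding cap subunit, was the lower one, at 6.27 FPKM in the WT nucleus, 5.08 in the WT cytoplasm, 13.9 in the MTR4-null nucleus and 15.2 in the MTR4-null cytoplasm (-1.10). Exosc7, a ring subunit, was at 26.7, 33.1, 61.5 and 23.5 FPKM (0.94). Thus subunits of the same complex lay on either side of the median. The 32 genes of cytoplasmic decay had a median of 0.07, with 0 higher and 2 lower, the uridylyltransferase gene Zcchc6 (-1.38) and Zfp36l2 (-1.33), which encodes a protein that binds AU-rich mRNA.

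Splicing factors had a median of -0.00 over 58, with 2 higher and 7 lower (3.45% and 12.1%), near the shares of 5.84% and 11.3% over all genes kept. Srsf9, an SR protein gene, was at 33.4 FPKM in the WT nucleus, 17.2 in the WT cytoplasm, 50.3 in the MTR4-null nucleus and 52.7 in the MTR4-null cytoplasm (-1.71), and U2af1, which recognises the 3′ splice site, was at 42.6, 97.9, 67.3 and 38.4 (1.26). The 37 genes of cleavage and polyadenylation had a median of 0.21, with 1 higher and 2 lower. The lower pair was Clp1, at 6.12, 1.96, 13.8 and 23.8 FPKM (-2.72), and Cpsf7, at 16.4, 2.73, 25.4 and 15.9 (-2.29), both of them parts of the 3′ end processing machinery. Both were relatively nuclear in WT. The 53 genes of mRNA export and nuclear pores had a median of 0.10, with 1 higher, the pore membrane gene Tmem48 (1.11), and 0 lower. The 57 ribosome biogenesis genes had a median of -0.00, with 3 higher and 5 lower, among them Nip7 at 21.9, 6.91, 213 and 176 FPKM (-1.98).

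Of 21 immediate early genes, which respond first to a stimulus, 7 were kept, with a median centred change of -0.79, 0 higher and 3 lower: Ier2 (-2.005), Klf2 (-1.65) and Jund (-1.24). Jund, a subunit of the AP-1 transcription factor, was at 11.8 FPKM in the WT nucleus, 8.15 in the WT cytoplasm, 125 in the MTR4-null nucleus and 129 in the MTR4-null cytoplasm. It was thus higher in both MTR4-null compartments, with nearly equal levels in them. Stress genes of the unfolded protein and integrated responses had a median of -0.11 over 24. Of these 1 was higher and 5 lower (4.17% and 20.8%, against 5.84% and 11.3% of all genes kept). Ddit3, the stress factor CHOP, was at 45.0, 39.9, 52.4 and 82.8 FPKM (-1.54), and Chac1, which degrades glutathione, at 7.55, 1.76, 6.08 and 14.2 (-3.46). Sdf2l1, a chaperone of the endoplasmic reticulum, was at 5.82, 28.1, 28.4 and 23.2 FPKM (1.65).

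The 13 kept genes of metallothioneins and zinc transporters had a median of -0.25, with 0 higher and 1 lower. That one, Mt1, which binds zinc and other metals, was at 2.01 FPKM in the WT nucleus, 0.447 in the WT cytoplasm, 175 in the MTR4-null nucleus and 128 in the MTR4-null cytoplasm (-1.33). Its level differed far more between the genotypes than between the compartments. Zinc finger genes, a class that includes the KRAB repressors, had a median centred change of -0.07 over 196 kept of 385. Of these 11 were higher and 33 lower (5.61% and 16.8%, against 5.84% and 11.3% of all genes kept). Zfp607 was at 11.3, 0.343, 87.6 and 88.6 FPKM (-3.93) and Zfp523 at 3.22, 7.02, 16.6 and 4.90 (1.78). Heat shock and chaperonin genes had a median of 0.13 over 25, with 2 higher and 1 lower, cytoskeleton genes 0.13 over 29, with 0 and 1, and DNA repair and p53 genes 0.16 over 18, with 1 each way. Among the 5 granulosa cell markers kept, Hsd3b1 (-1.75) and Inha (-1.44) were lower and 0 were higher, and the levels of this pair ranged from 4.32 to 21.4 FPKM over the columns.

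MicroRNA genes scattered in both directions. Of 615 listed, 53 were kept, with a median centred change of -1.07. Among these 17 were at least 2-fold higher and 27 lower (32.1% and 50.9%, against 5.84% and 11.3% of all genes kept). Only 17 stood above 0 in every column, and their median was -1.87. The FPKM of such a locus is from total RNA fragments longer than a mature microRNA and does not measure the mature form. Mir22, whose 3′ arm is an abundant microRNA of many tissues, was at 21.6 FPKM in the WT nucleus, 911 in the WT cytoplasm, 413 in the MTR4-null nucleus and 14.7 in the MTR4-null cytoplasm, a centred change of 9.34. Its compartments were thus in opposite order in the genotypes. Mir3064 was listed at 0 in the WT nucleus and stood at 169, 1085 and 92.5 FPKM in the other columns, and Mir3091 at 0, 94.6, 209 and 62.4. Mir465 had 346 FPKM among WT nuclei, 121 in the MTR4-null cytoplasm, and 0 in the remaining columns. The mature arms of 3 of these genes, from RefSeq on GRCm38.p6, are shown to identify the loci, with the seed, bases 2 to 8, in capitals.
miR-22-3p: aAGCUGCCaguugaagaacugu
miR-22-5p: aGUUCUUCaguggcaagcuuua
miR-3064-5p: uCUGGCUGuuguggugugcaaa
miR-3091-3p: cGGGCCUGaccagucucaagac

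The hairpins of Mir22, Mir3064 and Mir3091 hold these arms at chr11:75463772-75463793 (+) and chr11:75463734-75463755 (+), chr11:106782736-106782757 (-) and chr2:180257580-180257601 (+). RefSeq entries were found for 47 of the 53 microRNA genes kept, with 63 mature arms and 62 seeds. A single seed, GGCAUCU, was shared, between Mir680-1 and Mir680-2, among the 47 genes with an entry.

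Predicted gene models had a median centred change of -0.17 over 821, with 77 higher and 189 lower (9.38% and 23.02%, against 5.84% and 11.3% of all genes kept). The smallest was 4930470H14Rik, at 478 FPKM in the WT nucleus, 1.72 in the WT cytoplasm, 289 in the MTR4-null nucleus and 125 in the MTR4-null cytoplasm (-6.98). A630089N07Rik was at 336, 0.966, 108 and 40.7 FPKM (-6.75) and A130077B15Rik at 397, 0.681, 135 and 33.0 (-6.60). These 3 were nuclear in WT and at 33.0 FPKM or more in both MTR4-null columns. At the other end 1700120C14Rik was at 1.11, 9.49, 37.3 and 8.24 FPKM (3.65) and C130074G19Rik at 14.9, 102, 25.6 and 9.50 (3.32).

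The change also varied with abundance, transcript length and base composition. Over 5 equal groups of genes from the least to the most abundant (median FPKM 6.12, 10.995, 18.5, 32.6 and 81.8), the median change as deposited was 0.40, 0.61, 0.72, 0.80 and 0.85. The share of genes at least 2-fold lower after centring was 22.5% in the least abundant group and 6.51% in the most abundant. Among protein-coding genes, the share at least 2-fold higher went from 11.9% in the group with the shortest transcripts to 1.19% in that with the longest. From the lowest to the highest of 5 groups by GC content, the median nuclear genotype difference was -0.06 and 0.61 and the median cytoplasmic one -0.75 and -0.23, while the median change of ratio stayed between 0.67 and 0.81. The share of genes at least 2-fold higher after centring was 2.94% in the group of lowest GC content and 7.96% in that of the highest. By length, the median change as deposited stayed between 0.67 and 0.84. The part of abundance and length in the results on single genes was not tested.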

How the data were processed

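Per the submitters' processing notes, TopHat2 2.1.1, Cufflinks 2.2.1 and genome build mm9 were used; their settings are not given in the sources used here. The authors deposited FPKM per gene symbol with 1 column per group, and the read depth behind them is unknown. Per the labels' protocols, total RNA was depleted of ribosomal RNA, cDNA of 300 to 400 bp was selected and read as paired ends of 150 bp. The unnamed last row was left out. Genes at 5 FPKM or more in at least 2 columns were kept, ratios were computed on log2(FPKM + 1), a scale that understates differences of low genes, and centred on medians (Python 3.11.15, pandas 2.3.3, numpy 2.4.6). At least 2-fold means 1 or more on that log2 scale. The planned linear model could not be fitted with 1 column per group, so no p-value, SD between libraries or n is given. The counting was tested on simulated data.

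Genes were named by a rule: the 12 largest and 12 smallest changes without small RNA symbols and predicted models; 5 and 5 among small RNA genes; 4 and 4 among models; and from 34 gene lists the 2 largest, the 2 smallest and the most abundant kept member, or every member of lists with at most 6 kept. The text gives a part of these, and 1 of them is not reported here. Snora26, Snora31, Snora78, Snord33, Rpph1, Rmrp and Terc were added after their values were seen. Members, lists and the rule were chosen with earlier results of these data known. Symbols were matched to GENCODE M21 (GRCm38; 98.9% of genes kept matched) for class, length and GC content, and to RefSeq (GRCm38.p6) for microRNAs, and no coordinate of these builds was joined to mm9. Alternatives were other scalings, pseudocounts of 0.1 and 5, and other filters.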

Additional observations from a re-analysis of the deposited data

How the results depend on the processing

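The median change was 0 by construction after centring, -0.011 with equal sums without small RNA genes and 0.060 after quantile normalization, against 0.72 as deposited. The counts of genes higher and lower in ratio, 2684 and 402 as deposited, were 525 and 1015 after centring, 533 and 964 with equal sums, 729 and 741 after quantile normalization, 1692 and 192 with a pseudocount of 5, and 1449 and 152 at a mean of at least 20 FPKM. The lower count was 926 at 1 FPKM in at least 2 columns, 65 at 5 FPKM in all 4 columns and 231 without small RNA genes and predicted models. The centred counts, 525 and 1015, were 271 and 579 with a pseudocount of 5, 963 and 1920 at 1 FPKM in at least 2 columns, 228 and 367 at 5 FPKM in all 4 columns, and 171 and 292 at a mean of 20 FPKM. Of the 525 and 1015 genes, 489 and 772 were shared with the counts after quantile normalization (640 and 799). WT nuclear, MTR4-null nuclear and shared genes, 679, 260 and 93 after centring, were 354, 136 and 57 with a pseudocount of 5, 174, 97 and 19 at 5 FPKM in all 4 columns, and 222, 143 and 56 at a mean of 20 FPKM. At 1 FPKM in at least 2 columns the first 2 were 1366 and 472. Without small RNA genes and models the last 2 were 161 and 33, and without genes below 0.01 FPKM in any column the shared genes were 58.

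Over these alternatives the centred median ranged from -6.50 to -3.74 for small nuclear and nucleolar RNA genes, where any were left, and from 0.23 to 0.82 for replication-dependent histone genes. For genes of cytosolic ribosomal proteins (-0.02 to 0.18), mitochondrial ribosomal proteins (-0.12 to 0.05), mRNA export (-0.02 to 0.19), meiotic maturation (-0.02 to 0.17), splicing (-0.11 to 0.10), ribosome biogenesis (-0.05 to 0.09), replacement histones (-0.05 to 0.16) and small RNA hosts (-0.27 to 0.10) it crossed 0. No paired analysis was possible because the columns are pooled values without replicate numbers, and for the same reason no library could be left out in turn. Values of low genes and of short loci rest on an unknown number of reads, so differences near 5 FPKM are the least certain.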
